A study of Homo sapiens with 13 samples.

Results

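The genes described here build the kinetochore, the protein platform that ties each chromosome to the spindle, and run the spindle checkpoint. They are 36 genes taken by symbol from the 22613 entries of each deposited table, and all 36 were present and lay among the 15780 entries with a mean level of at least 0.5 FPKM, a fragment count corrected for transcript length and library size. The symbols were chosen with earlier results of these data known, so the counts of members below may in part reflect that choice. The study profiled RNA by sequencing in LNCaP-abl, a prostate cancer line derived from LNCaP that grows without added androgen. Cells at passage 53 to 60 were kept in medium with charcoal-stripped serum, which removes steroids, and each group received 1 pool of siRNAs for 72 h. The control pool is labelled siControl2, and the 12 others are labelled siFOXA1, siFOXM1, siEZH2, siEED, siCTCF, siRAD21, siSMARCA4, siKDM1A, siBRCA1, siBRCA2, siMALAT1 and siPCAT1, called targeting libraries here. Each group is 1 library from 1 cell line, so no difference has a replicate check, no test was possible, and all values below describe these 13 libraries.

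Kinetochores assemble on centromeric nucleosomes that contain the histone variant CENP-A. An inner network of CENP proteins, the CCAN, carries the KNL1 and NDC80 complexes that bind microtubules, and the SKA complex, the motor CENP-E and the RZZ complex join at the outer face. Kinetochores without attached microtubules recruit the MAD and BUB proteins, which hold back CDC20, the activator of the anaphase-promoting complex, until every chromosome is attached. The chromosomal passenger complex, with the kinase Aurora B, releases faulty attachments. Many of these genes are transcribed mainly in late S, G2 and mitosis, in part through the CHR, a promoter element read by the DREAM, B-MYB and FOXM1 complexes.

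The labels were checked against the targeted genes first. Of the 11 targets checked, 8 were lower in their own library than in the other 12 libraries, among them FOXM1 (0.474 against 20.1 FPKM in the control) and FOXA1 (60.6 against 137 FPKM). BRCA1 was at 1.83 FPKM in siBRCA1 against 11.1 in the control, rank 3 from the lowest of the 13 libraries. BRCA2 was at 1.23 FPKM in siBRCA2 against 3.25, but only rank 9 from the lowest. The level of BRCA2 RNA thus does not set siBRCA2 apart from the other targeting libraries. The library labelled siMALAT1 held more MALAT1 than the control, 21.7 against 16.4 FPKM, so the target RNA was not lower there. The target of siPCAT1 was not analysed here. In lists of values the name siMALAT1 stands for the library labelled so. The luminal prostate genes HOXB13, FOLH1, KRT8 and KRT18 were present in every library, whereas KLK3 and KLK2 reached at most 0.524 and 1.70 FPKM. TMPRSS2, the remaining luminal marker, was at 19.4 FPKM in siControl2. It ran from 14.6 FPKM in siBRCA1 to 52.8 FPKM in siFOXM1. The 7 luminal markers analysed here summed to 613 to 1020 FPKM per library, and the 5 markers of other cell types that were analysed summed to 6.54 to 14.4 FPKM, most of it CD68, a macrophage marker.

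All 36 kinetochore and checkpoint genes were below the control in 10 of the 12 targeting libraries, or 9 of 11 without the library labelled siMALAT1, and the libraries differed widely in how far. The median member stood at 11.2% of its control FPKM in siFOXA1, 11.5% in siFOXM1, 13.4% in siEZH2 and 19.0% in siCTCF. It stood at 28.6% in siSMARCA4, 37.0% in the library labelled siMALAT1, 39.2% in siRAD21, 41.5% in siPCAT1, 49.3% in siKDM1A and 55.8% in siBRCA1. In siEED and siBRCA2 it was at 78.4% and 86.3%, with 33 and 31 of the 36 members below the control. The control was the highest of the 13 libraries for 29 members, siBRCA2 for 5 and siEED for 2. siFOXA1 was the lowest for 24 members, siFOXM1 for 8, siEZH2 for 3 and siSMARCA4 for 1, BUB3. The marker sum of other cell types was 8.19 FPKM in the control, 14.4 in siFOXM1, 12.6 in siFOXA1, 11.8 in siCTCF, 9.84 in siEZH2, and 6.54 to 12.2 in the other targeting libraries. CD68 was at 5.19 FPKM in the control, 11.1 in siFOXM1, 9.67 in siCTCF, 9.15 in siFOXA1 and 7.61 in siEZH2, and the leukocyte gene PTPRC was at 0.946, 1.10, 0.329, 0.1004 and 0.212 FPKM in the same order. CD68 was thus higher than in the control in these 4 libraries, but PTPRC was lower in 3 of them. CD68 was also above the control in siPCAT1 at 7.76 FPKM, siRAD21 at 7.06 and siEED at 6.65. The same held in siSMARCA4 at 5.65, siMALAT1 at 5.34 and siBRCA2 at 5.27, whereas siBRCA1 at 4.80 and siKDM1A at 4.07 were below it. PTPRC was highest in siRAD21, at 3.14 FPKM. Of the 5 markers only KRT14 was at 0 in any library, in 4 of them. The part of these markers in the members' levels was not tested.

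**Figure D1:**
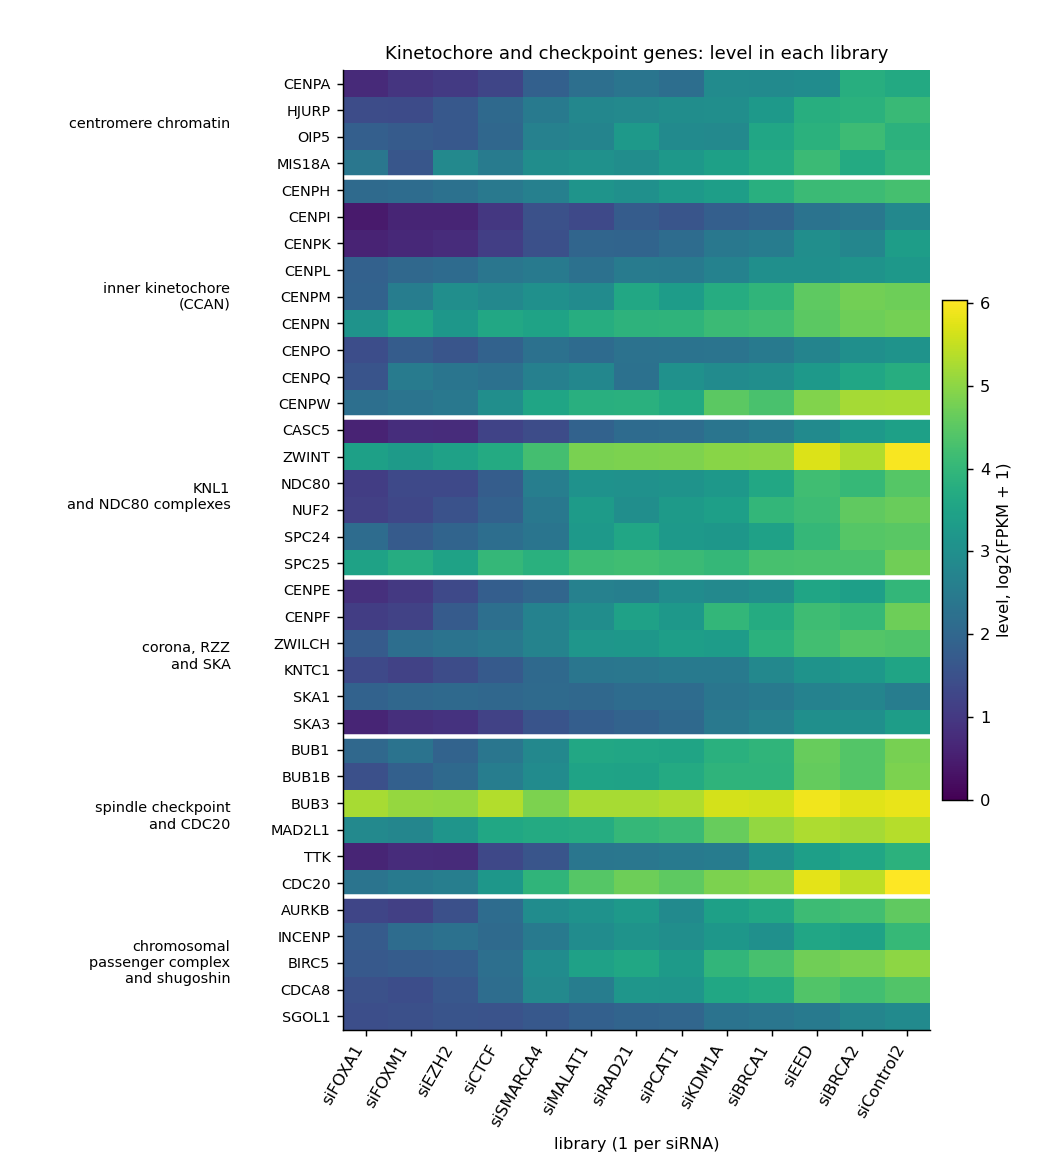
Level of each of the 36 genes (rows, grouped by role) in each of the 13 libraries (columns, 1 library per siRNA), as log2(FPKM + 1) on the colour scale. Rows are dark in siFOXA1, siFOXM1, siEZH2 and siCTCF and bright in siEED, siBRCA2 and siControl2, while BUB3, SPC25 and SKA1 keep a more even shade.

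Differences from the control are given on the log2(FPKM + 1) scale, targeting library minus control, and a difference of -1 or lower is counted as 2-fold lower. In siFOXA1 the members' median was -2.67 and 34 of 36 were 2-fold lower, against 4.22% of all 15780 genes. In siFOXM1 the median was -2.57 with 33 of 36 (all genes, 3.60%), in siEZH2 -2.45 with 34 (3.09%), and in siCTCF -2.09 with 32 (2.85%). The next libraries were siSMARCA4 at -1.67 with 31 members (1.97%), the library labelled siMALAT1 at -1.31 with 29 (1.57%), siRAD21 at -1.24 with 26 (1.88%) and siPCAT1 at -1.19 with 25 (1.33%). In siKDM1A the median was -0.93 with 14 members (1.55%) and in siBRCA1 -0.78 with 5 (0.944%). With a pseudocount of 0.1 in place of 1 siBRCA1 had 8 members 2-fold lower against 2.81% of all genes, and the share of all genes ran from 2.37% to 7.47% over the 12 libraries. No member was 2-fold lower in siEED, where the median was -0.33 and 0.741% of all genes were, or in siBRCA2, where it was -0.19 and 0.760% were. The median over all genes lay between 0.01 and 0.05 in every library, and the members' medians lay below it in all 12. No member was 2-fold higher than the control anywhere, and the highest difference was OIP5 at 0.25 in siBRCA2.

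**Figure D2:**
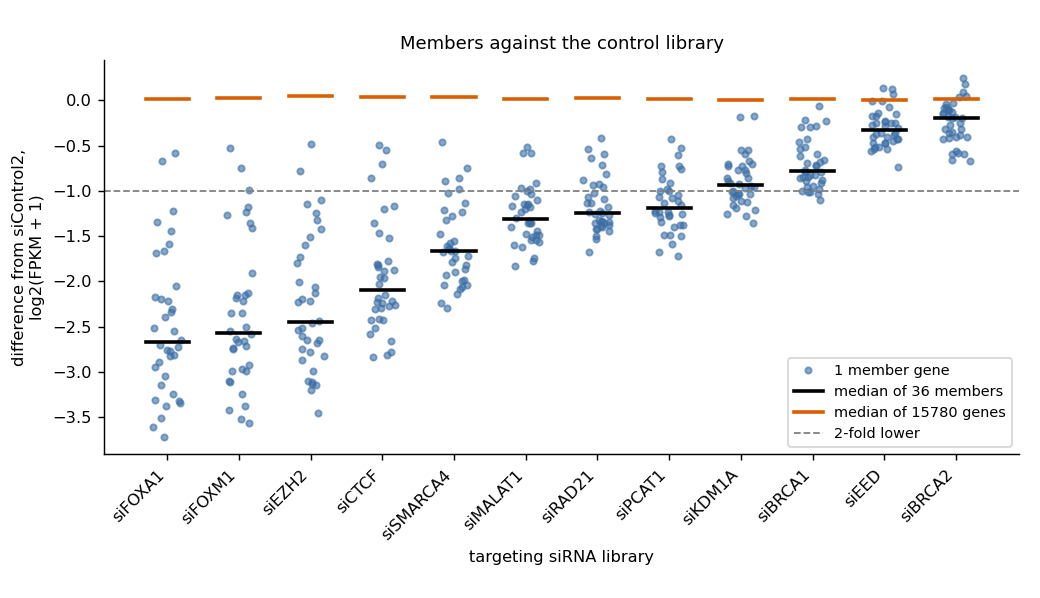
Difference of each member from siControl2 in log2(FPKM + 1) (vertical axis) for the 12 targeting libraries (horizontal axis), with 1 point per gene, black bars at the members' median and orange bars at the median of 15780 genes. The black bars run from -2.67 in siFOXA1 to -0.19 in siBRCA2 while the orange bars stay near 0, and the dashed line marks 2-fold lower.

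Of the 432 member values compared with the control, 263 were 2-fold lower, 8 lay above the control, and 43 lay within 0.1 of the threshold. CDC20 and CENPE were 2-fold lower in 10 targeting libraries, 26 members in at least 8, CENPL in 3, SPC25 in 2, and SKA1 and BUB3 in none. Without the library labelled siMALAT1, 234 of 396 values were 2-fold lower, and 13 members were so in at least 8 libraries. With a pseudocount of 0.1, CENPL was 2-fold lower in 4 libraries, SPC25 in 3 and BUB3 in 1, siSMARCA4, where its difference was -1.003. These 12 comparisons share the 1 control library, so any peculiarity of it enters all of them. RNA from bulk cultures was measured, in which fewer cells in G2 and mitosis and less of these RNAs per cell cannot be told apart.

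A second reference left the control out: each targeting library was set against the gene's median over the other 11, the one labelled siMALAT1 included. CDC20 was at -2.23 in siFOXA1, -2.08 in siFOXM1 and -1.96 in siEZH2 on this measure, and at 1.36 in siEED and 1.01 in siBRCA2. Members 2-fold lower numbered 28 in siFOXA1 (2.49% of all genes), 23 in siFOXM1 (1.77%), 20 in siEZH2 (1.35%) and 9 in siCTCF (0.830%). A pseudocount of 0.1 gave 19 in siCTCF, against 2.34% of all genes. Members 2-fold higher numbered 19 in siEED (1.01%), 18 in siBRCA2 (1.03%), 2 in siBRCA1 (0.222%), which were MAD2L1 at 1.33 and NUF2 at 1.02, and 1 in siKDM1A (0.311%), CENPF at 1.03. With a pseudocount of 0.1 the count in siBRCA1 was 4 (0.868%). Without the library labelled siMALAT1 in the reference, the members 2-fold lower were 28 in siFOXA1, 26 in siFOXM1, 22 in siEZH2 and 10 in siCTCF, and those 2-fold higher 24 in siEED, 24 in siBRCA2, 4 in siBRCA1 and 1 in siKDM1A. The shares of all genes were not computed for this changed reference, so these counts have no background beside them. With all 11 others in the reference, the members' medians were -0.03 in the library labelled siMALAT1, 0.07 in siRAD21 and 0.13 in siPCAT1. These libraries thus sat near the middle of the 12. In siSMARCA4 the median was -0.38 and all 36 members were below the reference, and in siKDM1A it was 0.36 with 2 members below.

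Centromere chromatin is represented by CENPA itself, by HJURP, the chaperone that deposits it, and by OIP5 (MIS18B) and MIS18A, which license deposition after mitosis. CENPA was at 11.8 FPKM in siControl2, 12.7 in siBRCA2, 6.66 in siEED, 6.39 in siBRCA1, 6.48 in siKDM1A, 3.56 in siPCAT1, 4.05 in siRAD21, 3.61 in siMALAT1, 2.61 in siSMARCA4, 1.40 in siCTCF, 1.04 in siEZH2, 0.916 in siFOXM1 and 0.655 in siFOXA1. It was thus highest in siBRCA2, next highest in the control, and below 1 FPKM in siFOXA1 and siFOXM1, a difference of -2.95 and -2.74 from the control. These stood at 5.56% and 7.78% of control FPKM, and with a pseudocount of 0.1 the differences were -3.97 and -3.55. In siEED CENPA was at 56.6% of control, the lowest of the 36 members in that library. MIS18A was at 14.7 FPKM in siControl2, 11.98 in siBRCA2, 16.3 in siEED, 11.9 in siBRCA1, 9.75 in siKDM1A, 8.33 in siPCAT1, 6.72 in siRAD21, 7.36 in siMALAT1, 6.74 in siSMARCA4, 4.68 in siCTCF, 6.12 in siEZH2, 2.08 in siFOXM1 and 4.23 in siFOXA1. Its lowest library was siFOXM1, at 14.1% of control, against 28.8% in siFOXA1 and 41.5% in siEZH2. OIP5, its partner, had another order among those libraries, at 15.7% in siEZH2, 16.9% in siFOXM1 and 18.6% in siFOXA1, so the ratio of OIP5 to MIS18A ran from 0.351 in siEZH2 to 1.11 in siFOXM1 and 1.37 in siBRCA2. No source used here states whether reads were assigned by strand, so those of the antisense gene OIP5-AS1 cannot be told apart from reads of OIP5. HJURP followed the members' median most closely, with a correlation of 0.996 with the median of the other 35 over the 13 libraries, which share 1 processing. The group's median difference ran from -2.53 to -0.08 over the 12 targeting libraries, and 30 of its 48 values were 2-fold lower.

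The inner kinetochore network was represented by 9 members, CENPH, CENPI, CENPK, CENPL, CENPM, CENPN, CENPO, CENPQ and CENPW. CENPW, a histone-fold protein that partners CENP-T at centromeric DNA, was at 37.1 FPKM in siControl2, 36.2 in siBRCA2, 28.6 in siEED, 18.6 in siBRCA1, 22.0 in siKDM1A, 11.7 in siPCAT1, 13.2 in siRAD21, 13.01 in siMALAT1, 10.6 in siSMARCA4, 6.93 in siCTCF, 4.38 in siEZH2, 4.02 in siFOXM1 and 3.61 in siFOXA1. Its difference from the control was -3.05 in siFOXA1 and -0.03 in siBRCA2. CENPL, which with CENP-N reads the CENP-A nucleosome, was at 8.30 FPKM in siControl2, 7.61 in siBRCA2, 6.96 in siEED, 6.98 in siBRCA1, 5.36 in siKDM1A, 4.63 in siPCAT1, 4.68 in siRAD21, 3.77 in siMALAT1, 4.53 in siSMARCA4, 4.15 in siCTCF, 3.35 in siEZH2, 3.11 in siFOXM1 and 2.67 in siFOXA1. CENPL spanned a far smaller range, from 32.2% of control in siFOXA1 to 91.7% in siBRCA2. CENPN moved beside it, and the ratio of CENPL to CENPN stayed between 0.291 and 0.435 in all 13 libraries. CENPH, CENPI, CENPK and CENPM form 1 subcomplex, yet their lowest values differed: 5.80% of control for CENPI and 5.61% for CENPK, but 17.995% for CENPH, all in siFOXA1. CENPI was the least abundant member in siFOXA1, at 0.353 FPKM, where the pseudocount of 1 compresses its difference to -2.39. CENPQ, of the CENP-O subcomplex, was the member with the widest gap between siFOXA1 and siFOXM1, at 1.94 and 4.67 FPKM against 12.7 in the control. It was also low in siRAD21, at 29.5% of control, where CENPO, its partner, was at 51.2%. CENPM was near the control in siBRCA2, at 104%, and at 10.8% in siFOXA1. Of the group's 108 values 59 were 2-fold lower, and its median ran from -2.21 to -0.11.

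The KNL1 and NDC80 complexes make the microtubule-binding layer. CASC5 encodes KNL1, the scaffold that binds BUB proteins, and ZWINT links it to the RZZ complex, while NDC80, NUF2, SPC24 and SPC25 are the 4 subunits of the NDC80 complex. NUF2 was at 24.2 FPKM in siControl2, 22.5 in siBRCA2, 16.7 in siEED, 14.96 in siBRCA1, 9.61 in siKDM1A, 8.74 in siPCAT1, 6.89 in siRAD21, 8.89 in siMALAT1, 4.34 in siSMARCA4, 2.68 in siCTCF, 1.85 in siEZH2, 1.43 in siFOXM1 and 1.21 in siFOXA1. NDC80, its dimer partner, was at 20.6 FPKM in siControl2, 15.4 in siBRCA2, 17.2 in siEED, 11.2 in siBRCA1, 8.36 in siKDM1A, 7.51 in siPCAT1, 7.32 in siRAD21, 7.46 in siMALAT1, 4.97 in siSMARCA4, 2.42 in siCTCF, 1.51 in siEZH2, 1.53 in siFOXM1 and 1.14 in siFOXA1. Both had the control as their highest library and siFOXA1 as their lowest, at 4.99% and 5.51% of control, and the ratio of NDC80 to NUF2 stayed between 0.683 and 1.14. SPC25 was at 25.3 FPKM in siControl2, 18.8 in siBRCA2, 18.8 in siEED, 18.5 in siBRCA1, 15.2 in siKDM1A, 16.3 in siPCAT1, 17.1 in siRAD21, 16.6 in siMALAT1, 13.1 in siSMARCA4, 15.2 in siCTCF, 10.1 in siEZH2, 12.3 in siFOXM1 and 10.2 in siFOXA1. Its lowest value was 40.0% of control, in siEZH2, and its highest 74.5%, in siEED, so it stood lower than the control in every targeting library but within a narrow band. The ratio of SPC25 to NDC80 was 1.22 in the control and 1.09 in siEED, but 6.27 in siCTCF, 6.67 in siEZH2, 7.997 in siFOXM1 and 8.99 in siFOXA1. SPC24, with which SPC25 forms a dimer, ran from 10.9% of control in siFOXM1 to 97.0% in siBRCA2, and the ratio of SPC24 to SPC25 ran from 0.191 to 1.11 in the same libraries. CASC5 was at 5.31% of control in siFOXA1, and ZWINT, the second most abundant member in the control at 61.6 FPKM, at 14.3% in siFOXM1. The group's median ran from -2.71 to -0.30, with 47 of 72 values 2-fold lower.

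**Figure D3:**
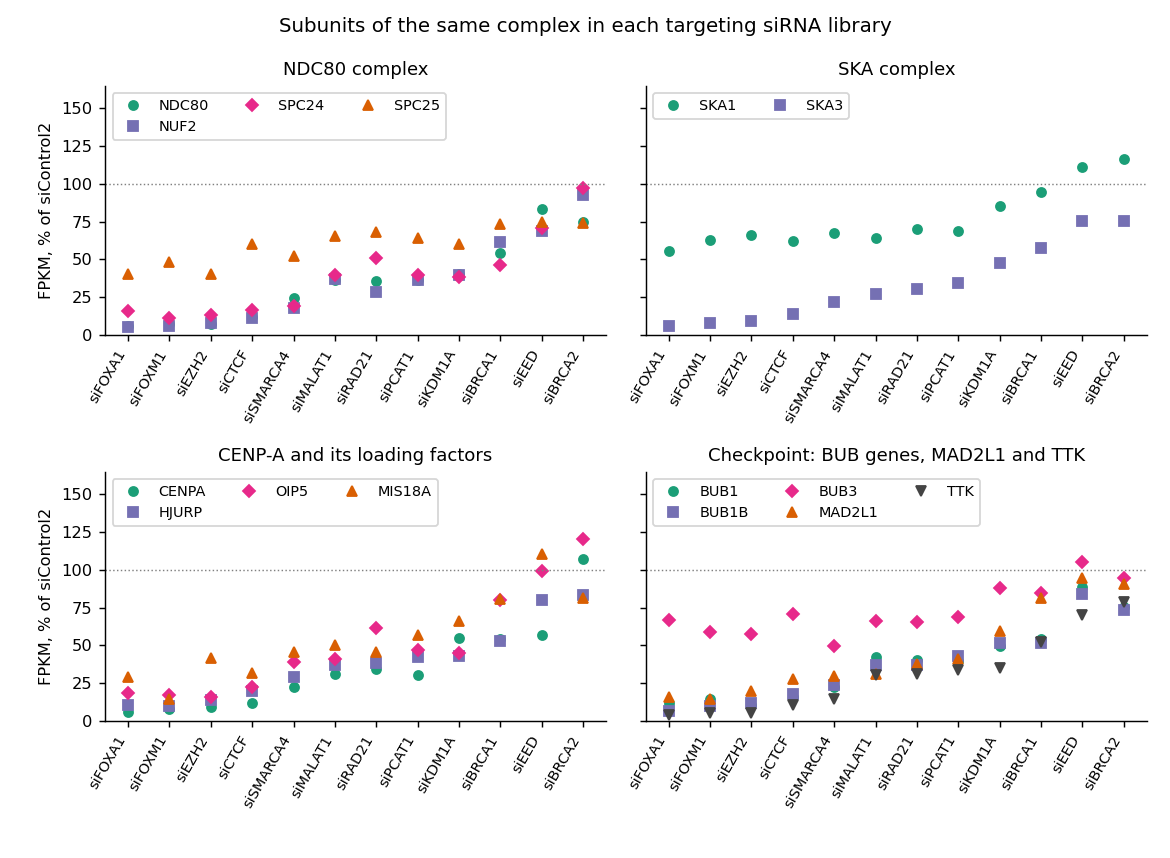
FPKM as a percent of siControl2 (vertical axis) in the 12 targeting libraries (horizontal axis) for members of 4 complexes or pathways, with 1 symbol per gene and 1 library per point. NDC80 and NUF2 lie close together in siFOXA1, siFOXM1, siEZH2 and siCTCF, while the lowest value of SPC25 is 39.99%, in siEZH2. SKA1 is at 55.4% in siFOXA1 where SKA3 is at 5.88%, and BUB3 stays above the other 4 checkpoint genes plotted.

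The corona, RZZ and SKA members act where kinetochores meet microtubules. CENPF, a large corona protein of G2 and mitosis, was at 25.2 FPKM in siControl2, 15.6 in siBRCA2, 16.8 in siEED, 12.03 in siBRCA1, 15.04 in siKDM1A, 8.23 in siPCAT1, 9.90 in siRAD21, 6.83 in siMALAT1, 5.38 in siSMARCA4, 3.59 in siCTCF, 2.31 in siEZH2, 1.28 in siFOXM1 and 1.14 in siFOXA1. Its values in siFOXA1 and siFOXM1 were 4.54% and 5.09% of control, among the lowest of all members. In siKDM1A it was at 59.8%, above the members' median of 49.3% there. CENPE, the kinesin that carries chromosomes to the metaphase plate, ran from 5.32% in siFOXA1 to 71.6% in siEED. SKA1 was at 4.87 FPKM in siControl2, 5.67 in siBRCA2, 5.42 in siEED, 4.62 in siBRCA1, 4.17 in siKDM1A, 3.35 in siPCAT1, 3.42 in siRAD21, 3.11 in siMALAT1, 3.28 in siSMARCA4, 3.03 in siCTCF, 3.21 in siEZH2, 3.06 in siFOXM1 and 2.70 in siFOXA1. It was the least abundant member in the control and the one with the smallest mean difference, and it was above the control in siBRCA2 and siEED. SKA3, of the same complex, was at 9.22 FPKM in siControl2, 6.97 in siBRCA2, 6.98 in siEED, 5.33 in siBRCA1, 4.396 in siKDM1A, 3.18 in siPCAT1, 2.77 in siRAD21, 2.502 in siMALAT1, 1.97 in siSMARCA4, 1.30 in siCTCF, 0.857 in siEZH2, 0.748 in siFOXM1 and 0.542 in siFOXA1. The ratio of SKA1 to SKA3 was therefore 0.528 in the control and 4.97 in siFOXA1. KNTC1 (ROD) and ZWILCH, both of the RZZ complex that brings MAD1 and dynein to kinetochores, stood at 12.1% and 18.1% of control in siFOXM1 and 78.4% and 103% in siBRCA2. In this group 44 of 72 values were 2-fold lower, and the median ran from -2.69 to -0.34.

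The checkpoint group held the lowest difference of the whole set. CDC20, the target of the checkpoint and the most abundant member in the control, was at 64.5 FPKM in siControl2, 42.5 in siBRCA2, 54.5 in siEED, 29.5 in siBRCA1, 27.8 in siKDM1A, 22.4 in siPCAT1, 24.9 in siRAD21, 20.6 in siMALAT1, 14.5 in siSMARCA4, 8.22 in siCTCF, 5.004 in siEZH2, 4.54 in siFOXM1 and 3.998 in siFOXA1. Its difference was -3.71 in siFOXA1, -3.56 in siFOXM1 and -3.45 in siEZH2, the lowest of the 36 members in each of those libraries. TTK (MPS1), the kinase that starts checkpoint signalling, was at 13.8 FPKM in siControl2, 10.9 in siBRCA2, 9.67 in siEED, 7.18 in siBRCA1, 4.78 in siKDM1A, 4.59 in siPCAT1, 4.25 in siRAD21, 4.19 in siMALAT1, 2.01 in siSMARCA4, 1.46 in siCTCF, 0.684 in siEZH2, 0.707 in siFOXM1 and 0.554 in siFOXA1. Its 4.03% of control in siFOXA1 was the lowest percent of any member in any library. BUB3, which carries BUB1 and BUBR1 to kinetochores, was at 56.0 FPKM in siControl2, 52.9 in siBRCA2, 59.0 in siEED, 47.6 in siBRCA1, 49.4 in siKDM1A, 38.6 in siPCAT1, 36.7 in siRAD21, 37.1 in siMALAT1, 27.9 in siSMARCA4, 39.4 in siCTCF, 32.3 in siEZH2, 33.0 in siFOXM1 and 37.2 in siFOXA1. BUB3 kept at least 49.8% of its control level in all 12 targeting libraries, the one labelled siMALAT1 included, and was lowest in siSMARCA4, whereas its partners BUB1 and BUB1B (BUBR1) were lowest in siEZH2 and siFOXA1 at 10.5% and 6.34%. The ratio of BUB3 to BUB1 was 2.08 in the control and 11.98 in siFOXA1. MAD2L1, the MAD2 protein that captures CDC20, was at 81.1% of control in siBRCA1, where the members' median was 55.8%, and at 30.8% in the library labelled siMALAT1, where it was 37.0%. The group's median ran from -3.01 to -0.21, with 43 of 72 values 2-fold lower.

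The chromosomal passenger complex consists of the kinase AURKB with INCENP, BIRC5 (survivin) and CDCA8 (borealin), and SGOL1 encodes shugoshin, which protects centromeric cohesion. BIRC5 was at 31.1 FPKM in siControl2, 27.3 in siBRCA2, 25.6 in siEED, 18.5 in siBRCA1, 14.7 in siKDM1A, 8.74 in siPCAT1, 11.1 in siRAD21, 9.87 in siMALAT1, 6.69 in siSMARCA4, 3.58 in siCTCF, 2.503 in siEZH2, 2.39 in siFOXM1 and 2.21 in siFOXA1. Its difference was below -3 in siFOXA1, siFOXM1 and siEZH2, and -0.18 in siBRCA2. SGOL1 was at 6.45 FPKM in siControl2, 5.70 in siBRCA2, 4.62 in siEED, 4.14 in siBRCA1, 3.92 in siKDM1A, 2.97 in siPCAT1, 2.84 in siRAD21, 2.58 in siMALAT1, 2.18 in siSMARCA4, 1.92 in siCTCF, 1.98 in siEZH2, 1.79 in siFOXM1 and 1.74 in siFOXA1. Its differences, from -1.44 in siFOXA1 to -0.15 in siBRCA2, spanned less than those of the other 4 genes. AURKB was at 5.37% of control in siFOXM1 and INCENP, the scaffold, at 22.0%, so the ratio of AURKB to INCENP was 0.357 there against 1.46 in the control. CDCA8 was at 99.7% of control in siEED and at 24.6% in the library labelled siMALAT1, where it was the lowest of the 36 members. Of the group's 60 values 40 were 2-fold lower, and its median ran from -2.96 to -0.18.

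How far single members departed from the set was measured as a residual, the member's difference from the control minus the members' median in the same library. The lowest median residuals over the 12 targeting libraries were those of CENPF at -0.39, NUF2 at -0.38, CDC20 at -0.36 and TTK at -0.34. The highest were those of SKA1 at 0.81, SPC25 at 0.72, BUB3 at 0.71 and CENPL at 0.54. Without the library labelled siMALAT1 the same 8 genes had -0.37, -0.44, -0.40, -0.42, 0.83, 0.71, 0.69 and 0.55 in that order. The residuals of BUB3, SKA1 and SPC25 also varied most, with an SD over the 12 libraries of 0.64, 0.61 and 0.59, since these members stayed nearer to the control where the others were furthest below it. The level of each member, as log2(FPKM + 1), correlated with the median of the other 35 over the 13 libraries with an r from 0.807 for BUB3 to 0.996 for HJURP, and r was over 0.95 for 30 of 36. These correlations describe 13 libraries normalized together and were given no test.

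**Figure D4:**
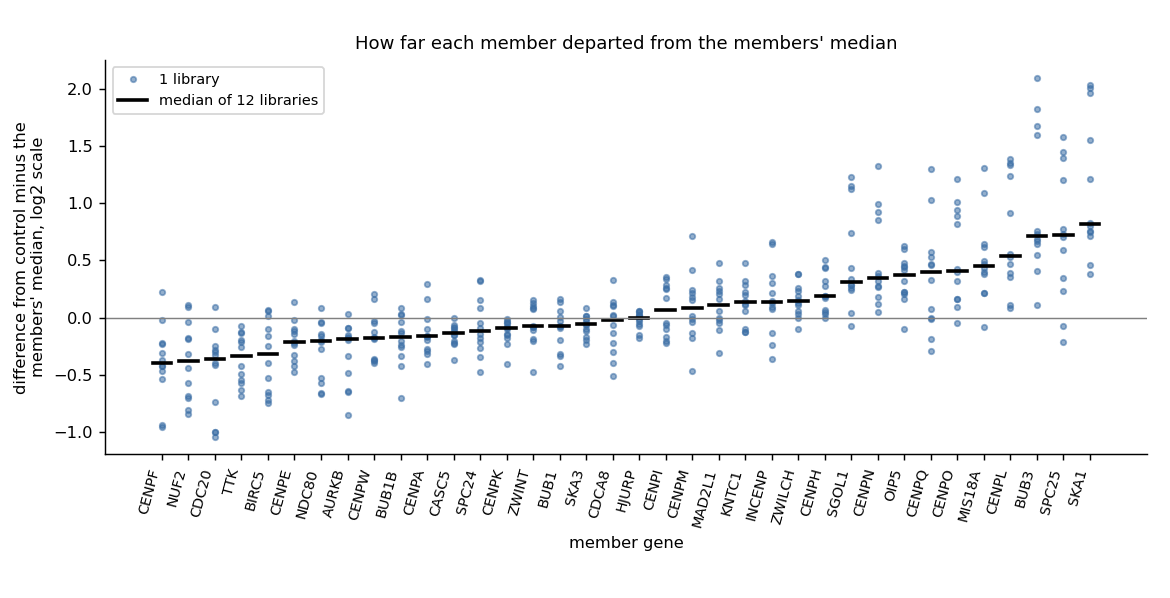
Residual of each member (horizontal axis, ordered by median) in log2 units (vertical axis), with 1 point per targeting library and a black bar at the median of the 12. CENPF is lowest at -0.39 and SKA1 highest at 0.81, and the points of BUB3, SPC25 and SKA1 spread furthest upward.

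Libraries of linked factors were compared directly, without the control. EZH2 and EED are subunits of the same Polycomb complex, and CDC20 was at 5.004 FPKM in siEZH2 and 54.5 FPKM in siEED. The members' median difference, siEZH2 minus siEED, was -2.12, all 36 were lower in siEZH2, and 30 were 2-fold lower, against 2.81% of all genes. EZH2 RNA stood at 13.4% of control in its own library and EED RNA at 46.2% in its own, so more of the target remained in siEED. FOXA1 RNA stood at 44.2% of control in siFOXA1, where the median member was at 11.2%. The part of the remaining target RNA in the members' levels was not tested. CTCF and the cohesin subunit RAD21 meet at many chromatin sites, and siCTCF minus siRAD21 gave a median of -0.81 with 14 members 2-fold lower (1.79% of all genes). CENPQ at 0.01 and BUB3 at 0.10 were the 2 members not lower in siCTCF. FOXA1 and FOXM1 are forkhead factors, and siFOXA1 minus siFOXM1 gave a median of -0.14, with 0 members 2-fold lower where 3.03% of all genes were. Its extremes were CENPQ at -0.95 and MIS18A at 0.76.

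Regulators of mitotic genes were read in the same libraries. FOXM1, a transcription factor of G2 and mitotic genes, was at 20.1 FPKM in siControl2, 13.1 in siBRCA2, 15.6 in siEED, 9.32 in siBRCA1, 11.7 in siKDM1A, 6.63 in siPCAT1, 9.42 in siRAD21, 7.56 in siMALAT1, 6.73 in siSMARCA4, 4.83 in siCTCF, 2.47 in siEZH2, 0.474 in siFOXM1 and 1.75 in siFOXA1. MYBL2 (B-MYB), which with the MuvB core precedes FOXM1 on those promoters, was at 25.9 FPKM in siControl2, 22.6 in siBRCA2, 14.5 in siEED, 10.9 in siBRCA1, 12.1 in siKDM1A, 5.81 in siPCAT1, 7.84 in siRAD21, 6.34 in siMALAT1, 5.01 in siSMARCA4, 2.88 in siCTCF, 2.02 in siEZH2, 1.47 in siFOXM1 and 1.11 in siFOXA1. Both were highest in the control. MYBL2 was lowest in siFOXA1, where the members were lowest too. FOXM1 was lowest in siFOXM1, where it is the siRNA target, and next lowest in siFOXA1. CDKN1A, the p21 inhibitor of cyclin-dependent kinases, was at 22.5 FPKM in siControl2, 79.7 in siBRCA2, 50.4 in siEED, 95.4 in siBRCA1, 100.5 in siKDM1A, 24.99 in siPCAT1, 88.4 in siRAD21, 36.1 in siMALAT1, 130.5 in siSMARCA4, 440.0 in siCTCF, 47.5 in siEZH2, 77.6 in siFOXM1 and 82.6 in siFOXA1. It was above the control in every targeting library, but not in step with the members: it was at 79.7 FPKM in siBRCA2, where the members' median was 86.3% of control, and 24.99 FPKM in siPCAT1, where it was 41.5%. The part of these 3 genes in the members' levels was not tested. Of the 14 regulators, MYBL2, FOXM1 and E2F1 had the lowest mean differences over the 12 targeting libraries, -1.99, -1.60 and -1.29, and CDKN1A, LIN37 and LIN52, the last 2 of the MuvB core, the highest, 1.76, 0.27 and 0.08. Per library 0 to 5 of the 14 were 2-fold lower, where 0.741% to 4.22% of all genes were, with 5 in each of siFOXM1 (3.60% of all genes), siEZH2 (3.09%) and siCTCF (2.85%). The 5 in siFOXM1 include FOXM1, the siRNA target there.

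**Figure D5:**
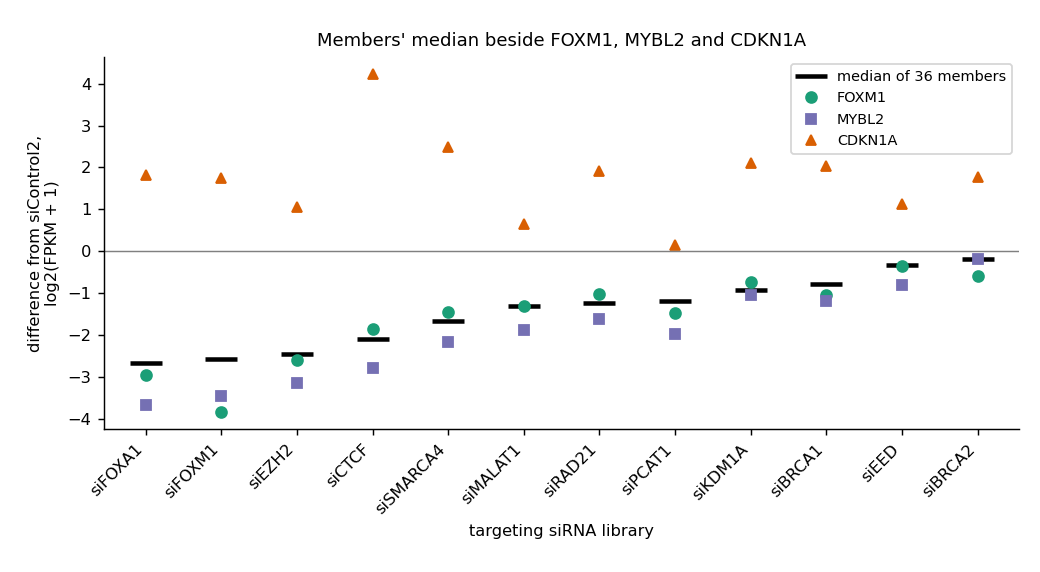
Difference from siControl2 in log2(FPKM + 1) (vertical axis) in the 12 targeting libraries (horizontal axis) for FOXM1, MYBL2 and CDKN1A, 1 point per library, with black bars at the median of the 36 members. FOXM1 and MYBL2 lie below 0 in all 12, down to -3.84 for FOXM1 in siFOXM1, where it is the siRNA target. CDKN1A lies above 0 in all 12 and reaches 4.23 in siCTCF.

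Other genes of the same structures were a mixed group, some as far below the control as the members and many near it. A list of 28 further kinetochore genes had 8 genes 2-fold lower in each of siFOXA1 (4.22% of all genes), siFOXM1 (3.60%) and siCTCF (2.85%), 7 in siEZH2 (3.09%) and 6 in siSMARCA4 (1.97%). It had 3 in siRAD21 (1.88%), 2 in each of siBRCA1 (0.944%), siPCAT1 (1.33%) and the library labelled siMALAT1 (1.57%), 1 in siKDM1A (1.55%), and 0 in siEED (0.741%) and siBRCA2 (0.760%). The list's median ran from -0.57 in siFOXM1 to -0.15 in siBRCA2. Its lowest mean differences were those of MLF1IP (CENP-U) at -1.68, SGOL2, the second shugoshin, at -1.38 and KNSTRN (kinastrin) at -1.17. In siFOXA1, where the members' median was -2.67, MLF1IP was at -2.87 and SGOL2 at -2.82. The highest were MAD2L1BP, which takes MAD2 off its partners, at 0.24, CENPT at 0.05 and the microtubule-binding CLASP1 at -0.00. CENPT was at 57.3 FPKM in siFOXA1 against 25.7 in the control, while CENPW, its partner, was at 3.61 against 37.1. Of 16 genes of the anaphase-promoting complex and its cofactors 0 to 3 were 2-fold lower per library, where 0.741% to 4.22% of all genes were, with 3 in siEZH2 (3.09% of all genes). The E2 enzymes UBE2C at -1.86 and UBE2S at -1.09 had the lowest mean differences, followed by the core subunit CDC27 at -0.47, and the core subunits CDC26 at 0.39, ANAPC13 at 0.28 and ANAPC10 at 0.21 the highest. UBE2C, which works with CDC20, was at 3.69 FPKM in siFOXM1 against 59.8 in the control, and its difference of -3.57 in siFOXA1 was below the members' median.

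The members' promoters were searched for elements of mitotic genes. RefSeq windows on GRCh38.p14, from 250 bases before to 50 after the annotated start, matched 27 of the 36 members, and the first listed window of each gene was used. MIS18A, CENPH, CENPL, CENPM, CASC5, KNTC1, BUB3, TTK and BIRC5 were not matched. The CHR was searched by the letters TTTGAA and by its variants with the letters TTCGAA and with the letters TTTAAA, the CCAAT box by its name, and the E2F site as TTTGGCGC, TTTCGCGC, TTTCCCGC or TTTGCCGC, all on both strands, with overlapping matches counted. A CHR match lay in 21 of 27 members (77.8%) and in 20.8% of 15842 windows of coding genes, and TTTGAA alone in 59.3% and 12.1%. A CCAAT box lay in 19 members (70.4%, coding genes 36.4%), both elements in 14 (51.9%, coding genes 8.46%), and an E2F match in 2, CENPA and OIP5 (7.41%, coding genes 4.44%). The 120 bases before the start, 5′ to 3′ on the gene's strand, are printed for 3 members that ranged widely (CDC20, CENPF and CDCA8) and for SPC25, which stayed nearest to the control of those matched after SKA1. They are examples only. NUF2, NDC80 and AURKB also ranged widely, and the same stretch holds no whole CHR match or CCAAT box in them. CDC20 lies at chr1:43358861-43358980 on the plus strand, CENPF at chr1:214603075-214603194 on the plus strand, CDCA8 at chr1:37692396-37692515 on the plus strand and SPC25 at chr2:168890431-168890550 on the minus strand, and capitals mark CHR matches and CCAAT boxes, the latter as ATTGG on the opposite strand.
CDC20: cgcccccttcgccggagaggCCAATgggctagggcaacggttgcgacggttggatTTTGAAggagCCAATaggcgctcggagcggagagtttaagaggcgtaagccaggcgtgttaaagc
CENPF: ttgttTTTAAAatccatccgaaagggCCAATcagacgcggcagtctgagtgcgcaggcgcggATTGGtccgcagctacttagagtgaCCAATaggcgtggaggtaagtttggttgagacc
CDCA8: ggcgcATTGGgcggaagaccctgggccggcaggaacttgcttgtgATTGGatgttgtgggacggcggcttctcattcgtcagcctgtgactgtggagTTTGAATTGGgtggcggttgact
SPC25: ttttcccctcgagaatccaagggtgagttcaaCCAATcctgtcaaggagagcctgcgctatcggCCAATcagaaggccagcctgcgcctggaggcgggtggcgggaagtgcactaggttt
In CDC20 a CHR match starts 65 bases before the annotated start, between CCAAT boxes that start at -100 and -55. In CDCA8 the match at -23 overlaps a reverse CCAAT box at -18. CENPF holds 3 CCAAT boxes and a TTTAAA at -115 in this stretch, and a TTTGAA that starts 40 bases after the start. SPC25 has CCAAT boxes at -88 and -56, and a TTTGAA at -3 that runs across the start and so is not in capitals. In SKA1 a TTTGAA starts 34 bases after the start. CENPI, with neither element in its window, was at 5.80% of control in siFOXA1, and AURKB, with a CCAAT box at -153 and no CHR match in the window used, at 6.09%. RefSeq lists a second window for AURKB and for ZWINT, and these gave the same elements, no CHR match in AURKB and TTTGAA with CCAAT boxes in ZWINT. A match describes letters in a window around an annotated start, and binding was not measured. The part of these elements in the members' levels was not tested. Whether LNCaP-abl cells use these starts was not tested. An element outside the window would be missed, so no match in these windows does not show that CENPI or AURKB lacks a CHR.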

How the data were processed

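RNA was extracted 72 h after transfection of LNCaP-abl cells and sequenced as TruSeq libraries on a HiSeq instrument, per the labels' protocols. Reads were aligned with TopHat and expression estimated with Cufflinks on hg19, per the submitters' processing notes; their versions are not known here. The authors deposited 1 table per library of log2 FPKM values for 22613 entries. The deposited log2 values have a floor of -3.32, the log2 of 0.1, so 0.1 was taken as the authors' offset and subtracted after raising 2 to each value, and results below 1e-09 were set to 0. Sorted values of the 13 libraries differed by at most 0.0562 (log2), so the libraries lie on nearly 1 common distribution, a property that can hide a shift of all genes. Read depth is unknown, and no count test could be used.

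FPKM was set on log2(FPKM + 1), a scale that understates changes of low genes. The 15780 genes with a mean of at least 0.5 FPKM, after leaving out 771 small RNA entries, were the background. Groups came from the labels, with 1 library each, and differences of 1 or more (2-fold) were counted. All 36 members are named. Values in every library are given for the members of highest and lowest mean difference in each of 6 roles and a few more, and from each other list the 3 lowest and 3 highest by mean difference are named. The members and lists were chosen with earlier results of these data known. Alternatives were a pseudocount of 0.1, quantile normalization, centring on all genes, no filter on low values, members of at least 5 FPKM and, added after seeing the data, a reference without the library labelled siMALAT1. Promoter windows came from RefSeq. Python 3.11.15, numpy 2.4.6, pandas 2.3.3 and matplotlib 3.10.9 were used, and the calculation was tested on simulated data.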

Additional observations from a re-analysis of the deposited data

How the results depend on the processing

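Each comparison rests on 1 library against 1 other library or against a median of 11, so no spread between replicates is known, and counting error cannot be given because the read depth is unknown. No paired analysis was possible because each group holds 1 library and the labels carry no replicate numbers. Median differences of the members kept their direction under a pseudocount of 0.1, quantile normalization and centring on the median of all genes, which moved values by 0.01 to 0.05. With the pseudocount at 0.1 in place of 1, members 2-fold lower than the control in siBRCA1 numbered 8 in place of 5, members 2-fold lower than the other targeting libraries 19 in place of 9 in siCTCF and 2 in place of 0 in siSMARCA4, members 2-fold higher than the other targeting libraries 4 in place of 2 in siBRCA1, and members 2-fold lower in siFOXA1 minus siFOXM1 1 in place of 0. At 0.1 the shares of all genes were 2.81% for siBRCA1 lower than the control, 2.34% for siCTCF and 0.868% for siBRCA1 higher than the others. For siSMARCA4 and for siFOXA1 minus siFOXM1 the share at 0.1 was not computed. The same setting moved 30 of 432 single differences by over 1.5-fold, all of them further below the control, and the share of all genes 2-fold lower than the control by over 1.5 times in 12 of 12 targeting libraries. Quantile normalization and centring moved 0 of the 432 by that much. An alternative chosen after seeing the data left the library labelled siMALAT1 out of the reference of the other targeting libraries, which gave 4 in place of 2 members 2-fold higher in siBRCA1 and moved no other count or median there by over 1.5-fold. The share of all genes was not computed with that reference. Keeping only members of at least 5 FPKM, or leaving out the filter on low values for all genes, moved no median, count or share by over 1.5 times.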
